A study of Rattus norvegicus with 32 samples.

Results

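The comparison described here is that of uteri from female rats given bisphenol A (BPA) at 250 µg/kg body weight/day, the BPA 250 group, with uteri from rats given the vehicle alone, the control group. Its members are 8 of the 32 RNA-seq libraries of the study, 4 BPA 250 and 4 control, taken by their group labels, and all 17327 genes of the deposited count table were examined. All animals were Sprague-Dawley rats of the NCTR breeding colony. Dams of the BPA 250 group received BPA by oral gavage from gestation day 6 until labor began, and their pups received it by gavage from PND 1 until the experiment ended at PND365 (postnatal day, PND); the vehicle was 0.3% carboxymethylcellulose. The other 6 groups, also of 4 libraries each, received BPA at 2.5, 25, 2500 or 25000 µg/kg body weight/day or the estrogen ethinyl estradiol at 0.05 or 0.5 µg/kg body weight/day, and entered this comparison through the shared estimate of spread. The labels give no litter, estrous stage or batch. The p-values rest on the spread between libraries within the 8 groups, and littermates among the libraries cannot be told apart from independent animals.

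BPA is a monomer of polycarbonate plastics and epoxy resins that binds the estrogen receptors weakly. The uterus is a main target of estrogen, which through the receptor encoded by Esr1 drives growth of the epithelium, induces the progesterone receptor and acts with progesterone on the stroma. The tissue is a mixture of lining and gland epithelium, stroma, smooth muscle, vessels and immune cells, and its gene expression changes with the estrous cycle. In RNA from whole tissue, fewer cells of a type and less RNA per cell cannot be told apart.

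The BPA 250 libraries held 18842290, 24661856, 11802916 and 19105348 counts, against 11777809, 14235867, 14250456 and 14579842 in control, and a difference in mean depth was not detected (exact permutation test, two-sided, p = 0.114; the smallest p that 70 splits allow is 0.0286). Markers of the labelled tissue were present in all 8 libraries. Esr1 was at 127, 128, 102 and 141 CPM at BPA 250 and 188, 144, 107 and 147 CPM in control, and the smooth muscle actin gene Acta2 at 10708, 7367, 8643 and 10185 CPM at BPA 250 and 6641, 14747, 6348 and 9178 CPM in control. BPA 250 library 1 stood apart from the rest. In it 28.8% of all genes had a count of 0, against 18.4% to 23.3% in the other 31 libraries, and its median correlation of log2 CPM, the count relative to library size, with the other libraries was 0.896, the lowest of all 32. A count of 0 in this library beside at least 1 CPM in the other 7 was found for 105 genes, and for 0 to 2 genes in each of those 7. No 2 libraries of a group held identical values.

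In the fit over all 13312 genes that passed the filter on low counts, 1170 genes, 8.79%, differed between BPA 250 and control at an adjusted p under 0.05 (edgeR quasi-likelihood test, Benjamini-Hochberg adjustment). Of these, 591 were higher in BPA 250, 4.44% of the genes tested, and 579 were lower, 4.35%. A log2 fold change over 2 was reached by 81 of the raised genes and 38 of the lowered genes, and the median log2 fold change was 0.89 among the raised and -0.76 among the lowered genes. The 4 BPA 250 values lay wholly above or wholly below the 4 control values for 2566 genes, 19.3% of those tested, among them 472 of the raised and 503 of the lowered genes.

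**Figure D1:**
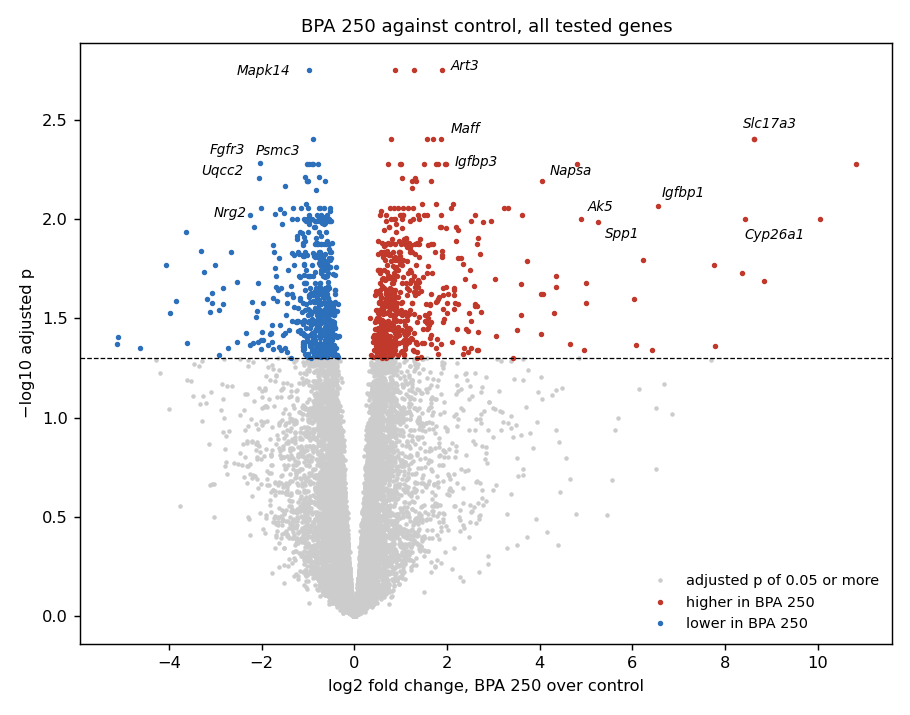
Each point is 1 of the 13312 tested genes, with its log2 fold change of BPA 250 over control on the x axis and the −log10 of its adjusted p on the y axis; points above the dashed line passed the threshold of 0.05. The 591 raised genes (red) reach further from 0 than the 579 lowered genes (blue), and Slc17a3, Cyp26a1 and Igfbp1 lie far to the right; 11 of the called genes have 3 or fewer counts in control, so that their place on the x axis is not well set.

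The number of calls varied with the libraries in the fit. Without BPA 250 library 1 it was 179, of which 174 were among the 1170, and without BPA 250 library 2 it was 1594. It was 972 without BPA 250 library 3, 415 without library 4, and 714, 498, 496 and 320 without control libraries 1 to 4. When BPA 250 library 1 was left out together with 3 libraries of other groups that also stood apart and that enter the shared estimate of spread (2 of BPA 2.5 and 1 of BPA 25000), a choice made after seeing the data, 884 genes were called, 653 of them among the 1170. None of the 1170 changed direction in any of these fits. A set of 129 genes, 79 raised and 50 lowered, passed in every one of the 8 fits that left out 1 library, and these are named as held below.

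**Figure D2:**
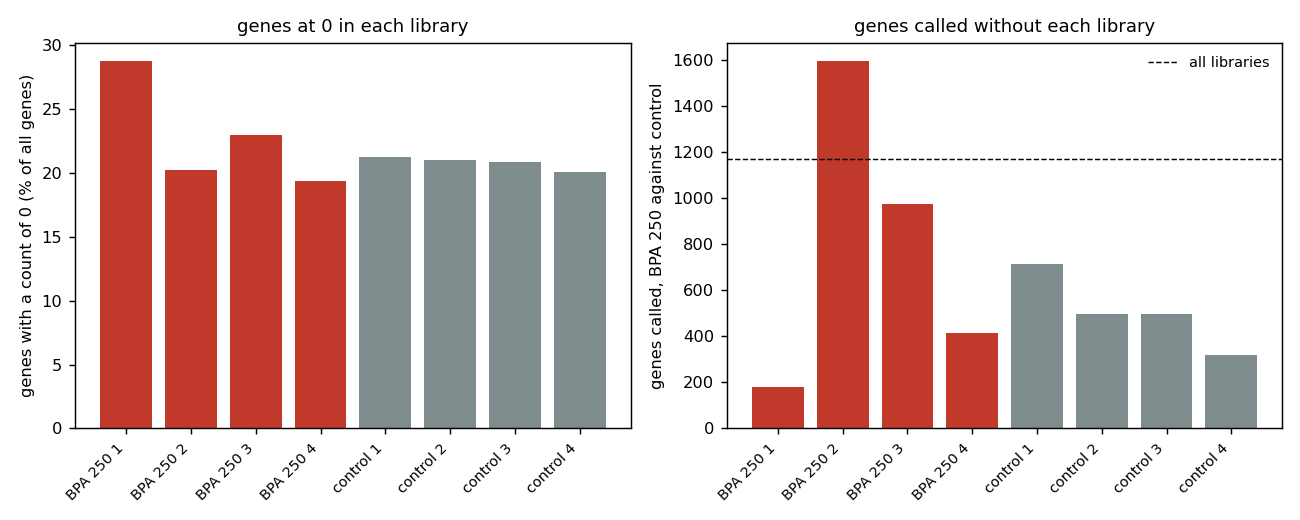
The left bars give the percentage of all 17327 genes with a count of 0 in each BPA 250 library (red) and control library (grey), and the right bars the number of genes called when that library was left out, with all 8 in as the dashed line. BPA 250 library 1 has the most genes at 0, 28.8%, and without it alone 179 genes are called, the fewest of the 8 bars; 884 are called when 3 libraries of other groups are left out with it.

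Among the 15 genes most raised by log2 fold change, the first was Slc17a3, which encodes a phosphate and organic anion transporter known from the kidney. It was at 159, 1.41, 61.1 and 84.1 CPM in BPA 250 libraries 1 to 4, against 0.0862, 0.148, 0.145 and 0.348 CPM in control libraries 1 to 4; values below keep this order of libraries. All 4 BPA 250 libraries exceeded all controls, library 2 by far the least, and the log2 fold change was 8.62 ± 1.49 (SE, adjusted p = 0.00395). A similar order of libraries was seen for Slc10a1, the bile acid uptake transporter of liver, at 23.4, 3.54, 11.9 and 18.3 CPM at BPA 250 and 2.33, 0.518, 0.870 and 0.975 CPM in control. Its log2 fold change was 3.61 ± 0.76 (adjusted p = 0.00955). Abcg2, an efflux pump for drugs and conjugated steroids, was at 88.1, 13.2, 41.7 and 89.7 CPM at BPA 250 and 4.31, 16.4, 7.54 and 9.68 CPM in control. Here BPA 250 library 2 lay within the control range, and the log2 fold change was 2.61 ± 0.55 (adjusted p = 0.00955). Abcb1a, the P-glycoprotein efflux pump, averaged 104 ± 69.4 CPM at BPA 250 and 32.1 ± 8.68 CPM in control (SD, n = 4 each), with library 2 again inside the control range and a log2 fold change of 1.70 ± 0.40 (adjusted p = 0.0134); reads shared with its close paralog Abcb1b could move its count. Slc17a3, Slc10a1 and Abcg2 held. Calls were lost for Abcb1a without BPA 250 library 1 (adjusted p = 0.072).

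Of 26 tested genes of drug and xenobiotic handling, 3 rose (Abcg2, Abcb1a and Ahr) and 1 fell, with a list median of 0.31 beside -0.02 for all tested genes. The share that passed was 15.4%, beside 8.79% of all tested genes. Ahr encodes the aryl hydrocarbon receptor and averaged 157 ± 30.1 CPM at BPA 250 and 98.2 ± 23.3 CPM in control (SD, n = 4 each). Ahr had a log2 fold change of 0.68 ± 0.20 (adjusted p = 0.0377). The gene that fell was Por, the reductase that supplies electrons to the cytochromes P450. Por was at 19.3, 28.6, 22.6 and 24.6 CPM at BPA 250 and 38.5, 55.4, 43.3 and 61.6 CPM in control. All BPA 250 values were below all control values, the log2 fold change was -1.06 ± 0.20 (adjusted p = 0.00616), and the call held. The test was no longer passed for Ahr without BPA 250 libraries 1 or 4 or control libraries 2, 3 or 4 (adjusted p up to 0.128).

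Retinoic acid, made from stored retinol, acts in the uterus through nuclear receptors, and is broken down by enzymes of the CYP26 family. Cyp26a1, the inducible member of that family and an estrogen and progesterone target of the rodent uterus, was at 221, 0.635, 78.1 and 22.9 CPM at BPA 250 and 0.345, 0.370, 0.217 and 0 CPM in control. It was near 0 in every control library, and in BPA 250 it ranged over a wide span, with library 2 the lowest. The log2 fold change was 8.43 ± 1.83 (adjusted p = 0.00997) and it held. Lrat, which esterifies retinol for storage, was at 765, 185, 280.3 and 1682 CPM at BPA 250 and 86.9997, 106, 84.9 and 79.7 CPM in control. All 4 BPA 250 libraries were above the controls, library 4 most, with a log2 fold change of 3.03 ± 0.78 (adjusted p = 0.0201). Rxrb, a partner receptor of the retinoic acid receptors, fell, with a log2 fold change of -0.51 ± 0.13 (adjusted p = 0.016). Of 21 tested genes of retinoid handling 2 rose and 2 fell, 19.05% beside 8.79% of all tested genes, and the list median was -0.30. The threshold was no longer passed for Lrat without BPA 250 libraries 1 or 4 or control libraries 3 or 4 (adjusted p up to 0.0873) and Rxrb without BPA 250 libraries 1 or 4 (adjusted p up to 0.0554).

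The start region of Cyp26a1 is shown because it carries a direct repeat of the retinoic acid receptor type. RefSeq promoter sequences (build GRCr8, 250 bases before to 50 after the gene start) were matched for 10688 of the 13312 tested genes, 80.3%. A direct repeat of AGTTCA spaced by 5 bases of any kind, searched on both strands, was present in 1 of these 10688 promoters, that of Cyp26a1. These letters were chosen as the half-site known from the Cyp26a1 gene and not as the general form of the element, so the match follows from the choice. The cyclic AMP response element TGACGTCA, searched likewise, was in 321 of them. Among the genes named by rule that had a matched promoter, those of Maff, Dusp1 and Abcg2, which rose, and of Sdhb, which fell, hold it. Other genes mentioned in the text, such as Mapk14 and Art3, were not looked up singly. The 3 that rose are shown and were chosen after the matches were seen. A link between the element and the direction of change was not tested. The palindromic estrogen response element, GGTCA and TGACC spaced by 3 bases, was in 1 of the 10688 promoters and in none of the 4 shown. A match describes the letters only and is not evidence of binding. Each sequence runs 5′ to 3′ with the motif in capitals.
Cyp26a1 (GRCr8 chr1:244883572-244883871, plus strand): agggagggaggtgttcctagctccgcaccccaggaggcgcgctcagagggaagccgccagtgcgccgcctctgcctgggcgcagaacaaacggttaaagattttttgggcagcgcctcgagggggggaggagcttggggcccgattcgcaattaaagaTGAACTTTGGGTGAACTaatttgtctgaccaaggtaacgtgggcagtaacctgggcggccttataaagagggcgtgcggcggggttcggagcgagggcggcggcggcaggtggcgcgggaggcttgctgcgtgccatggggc
Maff (GRCr8 chr7:112792537-112792836, plus strand): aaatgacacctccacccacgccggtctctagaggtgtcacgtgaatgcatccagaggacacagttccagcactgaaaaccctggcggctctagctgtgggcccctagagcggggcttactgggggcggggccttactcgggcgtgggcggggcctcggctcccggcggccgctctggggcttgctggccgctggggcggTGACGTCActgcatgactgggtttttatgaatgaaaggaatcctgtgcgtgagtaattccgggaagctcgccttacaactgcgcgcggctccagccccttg
Dusp1 (GRCr8 chr10:17184603-17184902, plus strand): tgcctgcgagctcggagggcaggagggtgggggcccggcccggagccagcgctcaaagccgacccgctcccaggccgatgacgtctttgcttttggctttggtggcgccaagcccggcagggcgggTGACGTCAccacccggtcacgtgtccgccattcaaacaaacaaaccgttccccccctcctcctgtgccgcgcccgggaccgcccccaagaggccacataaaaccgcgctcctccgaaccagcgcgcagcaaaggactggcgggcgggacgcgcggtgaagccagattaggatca
Abcg2 (GRCr8 chr4:89075224-89075523, plus strand): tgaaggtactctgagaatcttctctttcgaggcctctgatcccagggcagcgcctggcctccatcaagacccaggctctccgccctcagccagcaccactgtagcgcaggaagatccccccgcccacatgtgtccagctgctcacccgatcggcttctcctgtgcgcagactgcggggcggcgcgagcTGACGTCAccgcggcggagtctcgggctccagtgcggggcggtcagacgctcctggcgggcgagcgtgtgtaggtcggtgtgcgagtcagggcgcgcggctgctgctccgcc

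Also raised were Igfbp1 and Igfbp3 among the growth factor genes and Hsd11b1 and Nr3c1 among the steroid genes. Igfbp1, a binding protein for insulin-like growth factors that is secreted by the decidua in women, was at 43.6, 1.13, 25.7 and 37.9 CPM at BPA 250 and 0.0862, 0.148, 0.652 and 0.209 CPM in control. The 4 BPA 250 values were above all controls, and the log2 fold change of 6.56 ± 1.33 (adjusted p = 0.00862) rests on 15 counts in control. Igfbp3, the main carrier of these factors in serum, was at 186, 51.4, 164 and 82.6 CPM at BPA 250 and 30.5, 23.5, 29.7 and 38.9 CPM in control, without overlap and with a log2 fold change of 1.98 ± 0.37 (adjusted p = 0.00527). Igf1 itself, an estrogen-induced ligand, did not pass, with 277, 269, 215 and 139 CPM at BPA 250 and 237, 702, 469 and 355 CPM in control and a log2 fold change of -0.97 ± 0.41 (adjusted p = 0.121). Hsd11b1, which regenerates active glucocorticoid, was at 107, 13.8, 52.9 and 111 CPM at BPA 250 and 3.54, 9.92, 5.44 and 11.4 CPM in control. Its BPA 250 values were all above the controls, library 2 the lowest, with a log2 fold change of 3.23 ± 0.66 (adjusted p = 0.00879). Nr3c1, the glucocorticoid receptor, rose with a log2 fold change of 0.76 ± 0.24 (adjusted p = 0.0467). Of 27 tested genes of steroid receptors and metabolism 2 rose, Hsd11b1 and Nr3c1, and 1 fell, with a list median of 0.07. The share that passed was 11.1%, beside 8.79% of all tested genes. Igfbp1, Igfbp3 and Hsd11b1 held. No call was made for Nr3c1 without BPA 250 libraries 1, 3 or 4 or any 1 control library (adjusted p up to 0.126).

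Cited2, a coactivator of transcription counted among estrogen-responsive genes, was at 119, 76.9, 207 and 176 CPM at BPA 250 and 49.1, 37.97, 36.2 and 41.4 CPM in control. All BPA 250 libraries exceeded all control libraries, the log2 fold change was 1.81 ± 0.34 (adjusted p = 0.00527), and the call held. Cited2 and Cyp26a1 were the members that rose among 25 tested estrogen-responsive genes, 8% beside 4.44% of all tested genes that rose. None fell, and the list median was -0.34. The other estrogen-responsive genes examined did not pass. Epithelial markers, which are not on that list, are given beside them. Keratin 8 averaged 294 ± 204 CPM at BPA 250 and 386 ± 128 CPM in control (Krt8, SD, n = 4 each). Krt5 and Krt14 of stratified epithelium were under 1 CPM on average in both groups. On the estrogen list, the progesterone receptor gene Pgr was at 132, 243, 148 and 140.1 CPM at BPA 250. In control it was at 224, 326, 223 and 286 CPM. Pgr had a log2 fold change of -0.68 ± 0.35 (adjusted p = 0.203). The calcium-binding protein gene S100g was at 62.4, 994, 293 and 348 CPM at BPA 250 and 761, 721, 1068 and 493 CPM in control. S100g had a log2 fold change of -0.84 ± 0.74 (adjusted p = 0.465), and the 2 groups overlapped widely. Complement C3, a secretory product of the estrogen-treated epithelium, was at 3713, 6361, 1923 and 1986 CPM at BPA 250 and 8098, 229, 2988 and 2858 CPM in control, with a log2 fold change of -0.02 ± 0.67 (adjusted p = 0.988). The log2 fold change of Esr1 was -0.23 ± 0.22 (adjusted p = 0.493). Esr2 and the lactoferrin gene Ltf were under 2 CPM in all 8 libraries, with adjusted p = 0.525 for Esr2 and 0.786 for Ltf. Of 19 tested genes of the progesterone response, 1 rose, 5.26% beside 4.44% of all tested genes, and none fell. It was Irs2, an adaptor of the insulin receptor, with a log2 fold change of 1.29 ± 0.41 (adjusted p = 0.046). Its call was lost without BPA 250 libraries 1, 3 or 4 or any 1 control library (adjusted p up to 0.121).

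**Figure D3:**
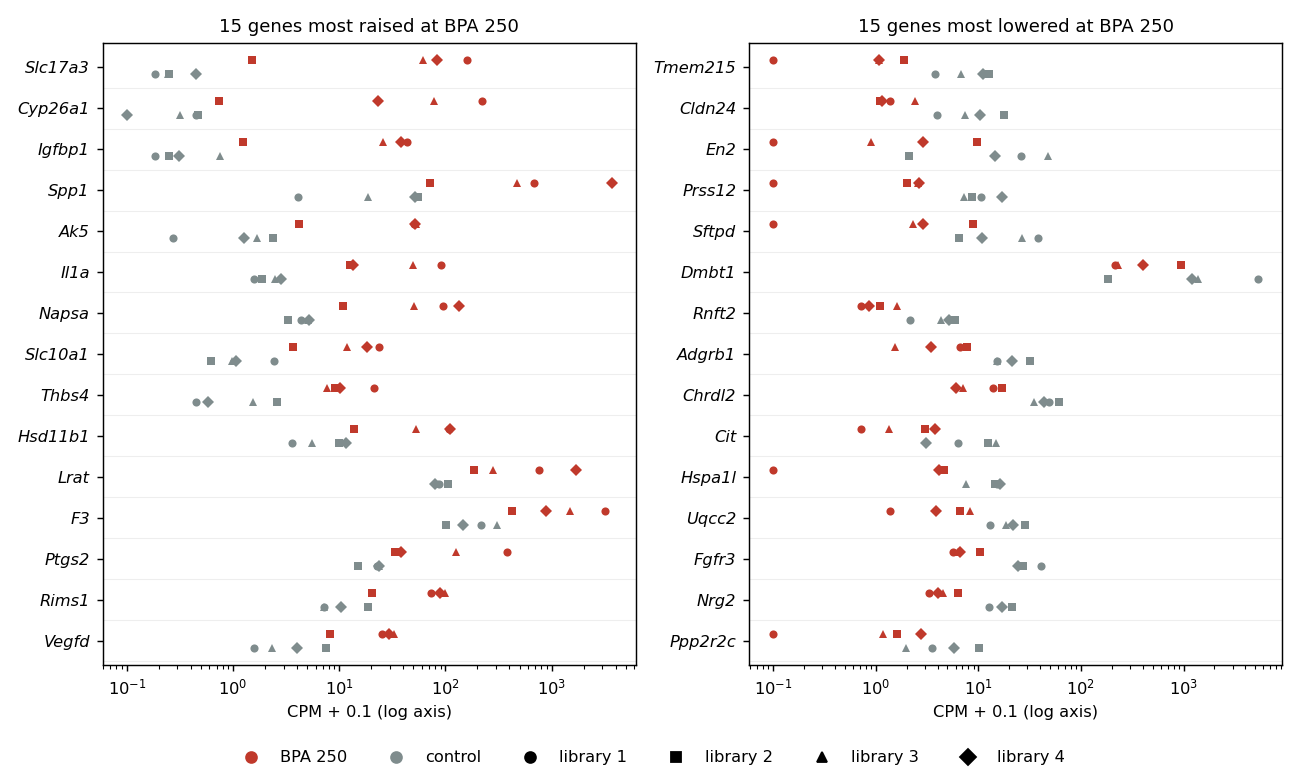
CPM plus 0.1 on a log axis for the 15 most raised genes (left) and the 15 most lowered genes (right), with BPA 250 libraries in red above control libraries in grey and 1 marker shape for each library number. Every raised gene has its 4 BPA 250 values above its 4 control values, and 14 of the 15 have their lowest BPA 250 value in library 2; 10 of the 15 lowered genes show no overlap, and 12 have their lowest value in BPA 250 library 1.

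Spp1 and F3 rose, as did 3 genes of the list of neutrophils and inflammation. Spp1, which encodes the adhesive protein osteopontin, was at 689.6, 72.2, 469.9 and 3688 CPM at BPA 250 and 3.97, 54.5, 18.7 and 51.2 CPM in control. The 4 BPA 250 values were above all controls with library 4 far above the others, and the log2 fold change was 5.26 ± 1.16 (adjusted p = 0.0104). F3 encodes tissue factor, the starter of coagulation, and was at 3155, 423, 1476 and 889 CPM at BPA 250 and 218, 102, 304 and 145 CPM in control; its log2 fold change was 2.95 ± 0.65 (adjusted p = 0.0102). Ptgs2, the inducible cyclooxygenase that makes prostaglandins, was at 384, 33.3, 126 and 37.9 CPM at BPA 250 and 22.7, 15.1, 23.7 and 23.4 CPM in control. The groups did not overlap, but libraries 2 and 4 lay close to the controls and library 1 far above them, and the log2 fold change was 2.78 ± 0.61 (adjusted p = 0.0104). Il1a, a proinflammatory cytokine, was at 91.1, 12.5, 49.8 and 13.4 CPM at BPA 250 and 1.47, 1.78, 2.39 and 2.72 CPM in control without overlap. Il1a had a log2 fold change of 4.31 ± 1.22 (adjusted p = 0.0297). The chemokine gene Ccl20 had 2.28, 0.136, 1.07 and 3.18 CPM in BPA 250 libraries 1 to 4, from 111 counts in all, and a count of 0 in each control library, which makes it at least 7.39-fold higher against a floor of 3 counts at the mean depth of the controls (adjusted p = 0.017). These last 3 were the members that rose among 19 tested genes of neutrophils and inflammation, none of which fell. The 3 were 15.8% of the list, beside 4.44% of all tested genes that rose. Of these 19, 11 had a fitted value above control and 8 below, with a list median of 0.19, and none of the 3 calls held. Spp1 held. Significance was lost for F3 without BPA 250 library 1 (adjusted p = 0.0538) and Ptgs2 without BPA 250 library 1 (adjusted p = 0.0804). An adjusted p over 0.05 was found for Il1a without BPA 250 library 1 or any 1 control library (adjusted p up to 0.0974) and Ccl20 without BPA 250 library 1 or control library 4 (adjusted p up to 0.0535).

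Some genes of proteolysis and matrix were also raised. Plau, which encodes urokinase, an activator of plasminogen, was at 243, 49.04, 76.6 and 53.7 CPM at BPA 250 and 23.97, 18.2, 41.1 and 28.6 CPM in control, with library 1 far above the others and a log2 fold change of 1.91 ± 0.51 (adjusted p = 0.0241). Of 21 tested matrix proteases and inhibitors 2 rose and 0 fell, 9.52% beside 4.44% of all tested genes that rose. Decorin, the small collagen-binding proteoglycan encoded by Dcn, was at 11573, 10184, 11408 and 12158 CPM at BPA 250 and 2601, 4074, 4849 and 3668 CPM in control. The BPA 250 values were close together and all above the highest control value, with a log2 fold change of 1.58 ± 0.40 (adjusted p = 0.0186). Lum, which encodes the related lumican, was at 291, 105, 304 and 291 CPM at BPA 250 and 59.4, 119, 52.2 and 94.4 CPM in control, with library 2 inside the control range and a log2 fold change of 1.61 ± 0.45 (adjusted p = 0.0297). Dcn and Lum were the members that rose among 24 tested stroma and matrix genes, 8.33% beside 4.44% of all tested genes. None fell, and the list median was 0.37. The summed level of that list was 39816 to 45795 CPM at BPA 250 and 19528 to 42624 CPM in control. Calls were lost for Plau without BPA 250 library 1 or control libraries 1, 2 or 4 (adjusted p up to 0.162), Dcn without BPA 250 library 1 or control libraries 1 or 4 (adjusted p up to 0.0564) and Lum without BPA 250 libraries 1, 3 or 4 or control libraries 1, 3 or 4 (adjusted p up to 0.0853).

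The remaining genes among the 15 most raised were Ak5, an adenylate kinase, Napsa, an aspartic protease of lung and kidney, Thbs4, a matrix thrombospondin, Rims1, a scaffold of the presynaptic active zone, and Vegfd, a growth factor for lymphatic vessels. Ak5 was at 50.3, 4.08, 53.03 and 51.8 CPM at BPA 250 and 0.172, 2.29, 1.59 and 1.18 CPM in control. Ak5 had a log2 fold change of 4.89 ± 1.06 (adjusted p = 0.00997). Napsa was at 95.1, 10.8, 51.1 and 134 CPM at BPA 250 and 4.22, 3.18, 5.0002 and 5.08 CPM in control. Napsa had a log2 fold change of 4.05 ± 0.79 (adjusted p = 0.00641). Thbs4 was at 21.4, 8.98, 7.66 and 10.1 CPM at BPA 250 and 0.345, 2.52, 1.45 and 0.488 CPM in control. Thbs4 had a log2 fold change of 3.31 ± 0.68 (adjusted p = 0.00879). No BPA 250 value of these 3 was below a control value. Rims1 had 73.04, 20.2, 99.99 and 89.1 CPM at BPA 250 and 7.16, 18.7, 7.03 and 10.3 CPM in control. Rims1 had a log2 fold change of 2.71 ± 0.65 (adjusted p = 0.015). Vegfd had 25.2, 8.08, 32.7 and 29.2 CPM at BPA 250 and 1.47, 7.48, 2.25 and 3.90 CPM in control. Vegfd had a log2 fold change of 2.64 ± 0.62 (adjusted p = 0.0134). In both, BPA 250 library 2 lay only just above the highest control, library 2 of that group. All 5 held. Of the 15 most raised genes 11 held, and among all 591 raised genes the lowest BPA 250 value fell in library 2 for 338.

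The lowered genes included several receptors, ligands and antagonists of growth factor signalling. Fgfr3, a receptor for fibroblast growth factors, was at 5.62, 10.3, 6.24 and 6.47 CPM at BPA 250 and 40.5, 27.3, 25.6 and 24.2 CPM in control. The groups were well separated, and the log2 fold change was -2.03 ± 0.36 (adjusted p = 0.00525). Nrg2, a neuregulin ligand of the ErbB receptors, was at 3.23, 6.17, 4.46 and 3.93 CPM at BPA 250 and 12.7, 21.2, 21.3 and 16.9 CPM in control, also without overlap, with a log2 fold change of -2.02 ± 0.41 (adjusted p = 0.00879). Chrdl2, an antagonist of bone morphogenetic proteins, was at 13.6, 17.1, 7.04 and 5.89 CPM at BPA 250 and 48.98, 60.5, 34.6 and 43.6 CPM in control, without overlap, with a log2 fold change of -2.10 ± 0.59 (adjusted p = 0.029). Gli1, a target and effector of Hedgehog signalling, was at 14.4, 16.5, 13.6 and 9.87 CPM at BPA 250 and 13.9, 65.7, 45.1 and 44.4 CPM in control. Control library 1 was within the BPA 250 range, and the log2 fold change was -1.64 ± 0.43 (adjusted p = 0.0229). Fgfr3 and Nrg2 held. The test was no longer passed for Chrdl2 without BPA 250 libraries 1, 3 or 4 or control libraries 2 or 4 (adjusted p up to 0.0878) and Gli1 without BPA 250 libraries 1 or 4 or control libraries 2 or 4 (adjusted p up to 0.0747).

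In the same pathways other genes were raised. Of 31 tested growth factors and receptors, Igfbp1, Igfbp3 and Erbb4 rose and Fgfr3 fell, 12.9% beside 8.79% of all tested genes. Erbb4, a receptor for neuregulins, was at 24.996, 0.0454, 8.02 and 8.08 CPM at BPA 250 and 0.0862, 0.592, 0 and 0.557 CPM in control. BPA 250 library 2 was inside the control range and the other 3 were far above it, with a log2 fold change of 4.9996 ± 1.29 (adjusted p = 0.021). Of 35 tested genes of the BMP, TGF-beta and Hedgehog pathways, Tgfb2 rose and Gli1 fell, 5.71% of that list. Tgfb2, a ligand of the TGF-beta receptors, was at 884, 112, 518 and 139.8 CPM at BPA 250 and 76.9, 132, 84.6 and 78.98 CPM in control. Libraries 1 and 3 were high while libraries 2 and 4 were close to the controls, and the log2 fold change was 2.15 ± 0.58 (adjusted p = 0.0241). The threshold was no longer passed for Erbb4 without BPA 250 library 1 or control libraries 1, 3 or 4 (adjusted p up to 0.0768) and Tgfb2 without BPA 250 library 1 or control libraries 1, 3 or 4 (adjusted p up to 0.124).

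Of 34 tested Wnt pathway genes 4 rose and 4 fell, 23.5% beside 8.79% of all tested genes, with a list median of -0.07. Lgr5, a receptor for R-spondins that also marks gland epithelium, was at 140.5, 50.9, 88.9 and 41.5 CPM at BPA 250 and 26.99, 23.5, 15.3 and 14.1 CPM in control, without overlap. Lgr5 had a log2 fold change of 2.01 ± 0.55 (adjusted p = 0.0265). Dkk2, an inhibitor of Wnt receptors, had a log2 fold change of 1.30 ± 0.31 (adjusted p = 0.015), and Tcf7l2, a transcription factor of the pathway, one of 0.55 ± 0.14 (adjusted p = 0.021). Lrp5, a Wnt coreceptor, had 65.97, 61.7, 47.8 and 48.03 CPM at BPA 250 and 120.5, 55.5, 131 and 109 CPM in control, with control library 2 inside the BPA 250 range and a log2 fold change of -0.90 ± 0.24 (adjusted p = 0.0259). The others that passed were Sfrp4, which rose, and Axin1, Nkd1 and Lef1, which fell. None of the 8 held, and without BPA 250 library 1 the list had 1 member that rose and 0 that fell. No call was made for Lgr5 without BPA 250 library 1 or control libraries 2, 3 or 4 (adjusted p up to 0.104), Dkk2 without BPA 250 library 1 or control library 4 (adjusted p up to 0.0692), Tcf7l2 without BPA 250 library 4 or control libraries 1 or 4 (adjusted p up to 0.06) and Lrp5 without BPA 250 libraries 1, 3 or 4 or control libraries 1, 3 or 4 (adjusted p up to 0.0795).

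The kinase Akt1, a central relay of insulin and growth factor signals, was at 67.4, 71.5, 67.3 and 50.3 CPM at BPA 250 and 121, 105, 106 and 115 CPM in control. The groups did not overlap, the log2 fold change was -0.80 ± 0.17 (adjusted p = 0.00955), and the call held. Akt2 was at 13.3, 22.3, 24.2 and 19.1 CPM at BPA 250 and 31.6, 33.8, 32.9 and 31.3 CPM in control and Pik3r3, a regulatory subunit of the kinase upstream of both, at 17.98, 22.3, 14.1 and 20.7 CPM at BPA 250 and 33.1, 28.9, 30.2 and 33.5 CPM in control. The log2 fold change of Akt2 was -0.72 ± 0.16 (adjusted p = 0.0121) and that of Pik3r3 -0.74 ± 0.19 (adjusted p = 0.022). Of 28 tested genes of the PI3K, Akt and mTOR pathway these 3 fell and 4 rose, namely Irs1, Irs2, Pik3ca and Sesn1. The share that passed was 25%, beside 8.79% of all tested genes. Irs1, an adaptor of the insulin receptor, had a log2 fold change of 0.86 ± 0.22 (adjusted p = 0.0188). The list median was -0.07, and without BPA 250 library 1 only Akt1 of these 7 passed. Significance was lost for Akt2 without BPA 250 library 1 (adjusted p = 0.062), Pik3r3 without BPA 250 libraries 1 or 3 or control library 4 (adjusted p up to 0.0763) and Irs1 without BPA 250 library 1 or control libraries 3 or 4 (adjusted p up to 0.0803).

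Among 25 tested genes that are mutated in endometrial cancers, 3 fell, Akt1 and Ppp2r1a among them, and 2 rose, Nfe2l2 and Pik3ca. The share that passed was 20%, beside 8.79% of all tested genes. Ppp2r1a, the scaffold of protein phosphatase 2A, was lower by a log2 fold change of -0.42 ± 0.11 (adjusted p = 0.0229). Nfe2l2, the regulator of oxidative stress genes, had a log2 fold change of 0.46 ± 0.14 (adjusted p = 0.0383). Mapk14, the stress kinase p38 alpha, was named after its values were seen, as was Art3. It was at 114, 144, 122 and 115 CPM at BPA 250 and 250.3, 265, 198 and 257 CPM in control. Mapk14 had a log2 fold change of -0.97 ± 0.15 (adjusted p = 0.00178). Art3, which encodes a member of the mono-ADP-ribosyltransferase family, was at 34.8, 27.4, 63.3 and 55.1 CPM at BPA 250 and 6.73, 14.1, 12.03 and 15.5 CPM in control. Art3 had a log2 fold change of 1.89 ± 0.29 (adjusted p = 0.00178). Both held and had no overlap. An adjusted p over 0.05 was found for Ppp2r1a without BPA 250 libraries 1, 3 or 4 or control libraries 2 or 4 (adjusted p up to 0.0983) and Nfe2l2 without BPA 250 libraries 1, 2 or 4 or control libraries 1, 2 or 4 (adjusted p up to 0.12).

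Every proteasome gene that passed was lower. Of 31 tested subunits of this protein-degrading complex 9 fell and 0 rose, beside 4.35% of all tested genes that fell, and 26 of the 31 had a fitted value below control. The list median was -0.30. The summed level of the 31 was 2683 to 2939.9 CPM at BPA 250 and 3254 to 3565 CPM in control, so that every BPA 250 library was below every control library. Psmc3, an ATPase of the regulatory particle, was at 33.6, 47.4, 47.1 and 41.2 CPM at BPA 250 and 78.6, 78.01, 80.4 and 75.6 CPM in control. Psmc3 had a log2 fold change of -0.88 ± 0.16 (adjusted p = 0.00527). Psmd4, a receptor for ubiquitin chains, was at 40.1, 47.5, 41.97 and 42.4 CPM at BPA 250 and 65.4, 82.6, 68.1 and 79.7 CPM in control. Psmd4 had a log2 fold change of -0.78 ± 0.14 (adjusted p = 0.00527). In both the highest BPA 250 value stayed below the lowest control value. Psmd2 had a log2 fold change of -0.59 ± 0.14 (adjusted p = 0.013) and Psmd13 of -0.71 ± 0.17 (adjusted p = 0.0134), both subunits of the regulatory particle. The others that fell were Psmc4, Psmc5, Psmd14, Psma7 and Psmb4. Psmc3 and Psmd4 held; without BPA 250 library 1 they were the 2 that still passed, and the list median was -0.19. Calls were lost for Psmd2 without BPA 250 library 1 (adjusted p = 0.0549) and Psmd13 without BPA 250 library 1 (adjusted p = 0.0739). Against the other BPA groups 3 of the 31 were higher and 4 lower, with a list median of 0.04. Of all tested genes 10.2% were higher and 9.13% lower in that contrast.

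Single genes of the respiratory chain, of ribosomes and of lipid synthesis fell against control, and none rose. The share of each list that passed was below the 8.79% of all tested genes that passed in either direction. Of all tested genes 4.35% fell, and the share of each list was above this except for the mitochondrial ribosomal proteins. Of 73 tested subunits of the respiratory chain and ATP synthase 6 fell and 0 rose, 8.22% (median -0.24). Sdhb, the iron-sulfur subunit of complex II, was at 49.7, 54.3, 60.7 and 54.4 CPM at BPA 250 and 65.4, 83.4, 87.3 and 78.8 CPM in control, without overlap, and its log2 fold change of -0.52 ± 0.11 (adjusted p = 0.00879) held. Ndufb11, a subunit of complex I, had a log2 fold change of -0.90 ± 0.23 (adjusted p = 0.0194). Uqcc2, an assembly factor of complex III and 1 of the 15 most lowered genes, was at 1.28, 6.49, 8.11 and 3.75 CPM at BPA 250 and 12.8, 28.6, 18.6 and 21.7 CPM in control, without overlap, and its log2 fold change of -2.07 ± 0.40 (adjusted p = 0.00623) held. Of 48 tested mitochondrial ribosomal proteins 2 fell and 0 rose, 4.17%. Of these, Mrps25 was at 16.2, 19.5, 16.2 and 16.1 CPM at BPA 250 and 40.1, 32.7, 30.1 and 32.6 CPM in control, and its log2 fold change of -0.99 ± 0.19 (adjusted p = 0.00641) held. The number of respiratory chain members that fell was 1 without BPA 250 library 1. The test was no longer passed for Ndufb11 without BPA 250 libraries 1 or 4 or control library 4 (adjusted p up to 0.0831). The direction differed against the other BPA groups. There 11 of the 73 respiratory chain genes were higher and 2 lower. Of the 48 mitochondrial ribosomal genes 6 were higher and 3 lower. It was 10 and 0 of 75 cytosolic ribosomal genes, and 5 and 0 of 29 lipid synthesis genes. Of all tested genes 10.2% were higher and 9.13% lower in that contrast.

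Of 75 tested cytosolic ribosomal proteins 5 fell and 0 rose, 6.67% (median -0.29), with log2 fold changes of -1.11 ± 0.35 (adjusted p = 0.044) for Rps18 and -1.10 ± 0.35 (adjusted p = 0.0457) for Rps19. Many of these genes have processed copies in the genome that can share reads, and the number that fell was 0 without BPA 250 library 1. The summed level of the 75 overlapped between the groups, with 24795 to 40770.3 CPM at BPA 250 and 27458 to 46138 CPM in control. Of 47 splicing factors 3 fell and 0 rose, 6.38%, while 26 had a fitted value above control and the list median was 0.04. Their summed level was 17762 to 20736 CPM at BPA 250 and 16225 to 17446 CPM in control, so that every BPA 250 library was above every control library. Such a separation was not particular to this list. Sums were also higher without overlap for progesterone response, retinoid, xenobiotic, immediate early and clock genes. The same held for the PI3K, Akt and mTOR pathway, matrix proteases and inhibitors, red blood cells and motile cilia. Of the 3 that fell, Hnrnpl, an RNA-binding regulator of splicing, had a log2 fold change of -0.56 ± 0.15 (adjusted p = 0.0217). Of 29 genes of cholesterol and lipid synthesis 2 fell and 0 rose, 6.90% (median -0.42). Fasn, the fatty acid synthase, was at 96.3, 105, 60.7 and 75.2 CPM at BPA 250 and 149, 181, 155 and 143 CPM in control, without overlap. Fasn had a log2 fold change of -0.90 ± 0.24 (adjusted p = 0.024). Fdps, an enzyme of the mevalonate pathway, had a log2 fold change of -0.88 ± 0.28 (adjusted p = 0.0481). The threshold was no longer passed for Rps18 without BPA 250 libraries 1 or 4 or control libraries 2, 3 or 4 (adjusted p up to 0.137), Rps19 without BPA 250 libraries 1, 3 or 4 or any 1 control library (adjusted p up to 0.125) and Hnrnpl without BPA 250 libraries 1 or 4 or control libraries 2 or 4 (adjusted p up to 0.0804). No call was made for Fasn without BPA 250 libraries 1, 3 or 4 or control library 2 (adjusted p up to 0.0716) and Fdps without BPA 250 libraries 1, 3 or 4 or control libraries 2, 3 or 4 (adjusted p up to 0.135).

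**Figure D4:**
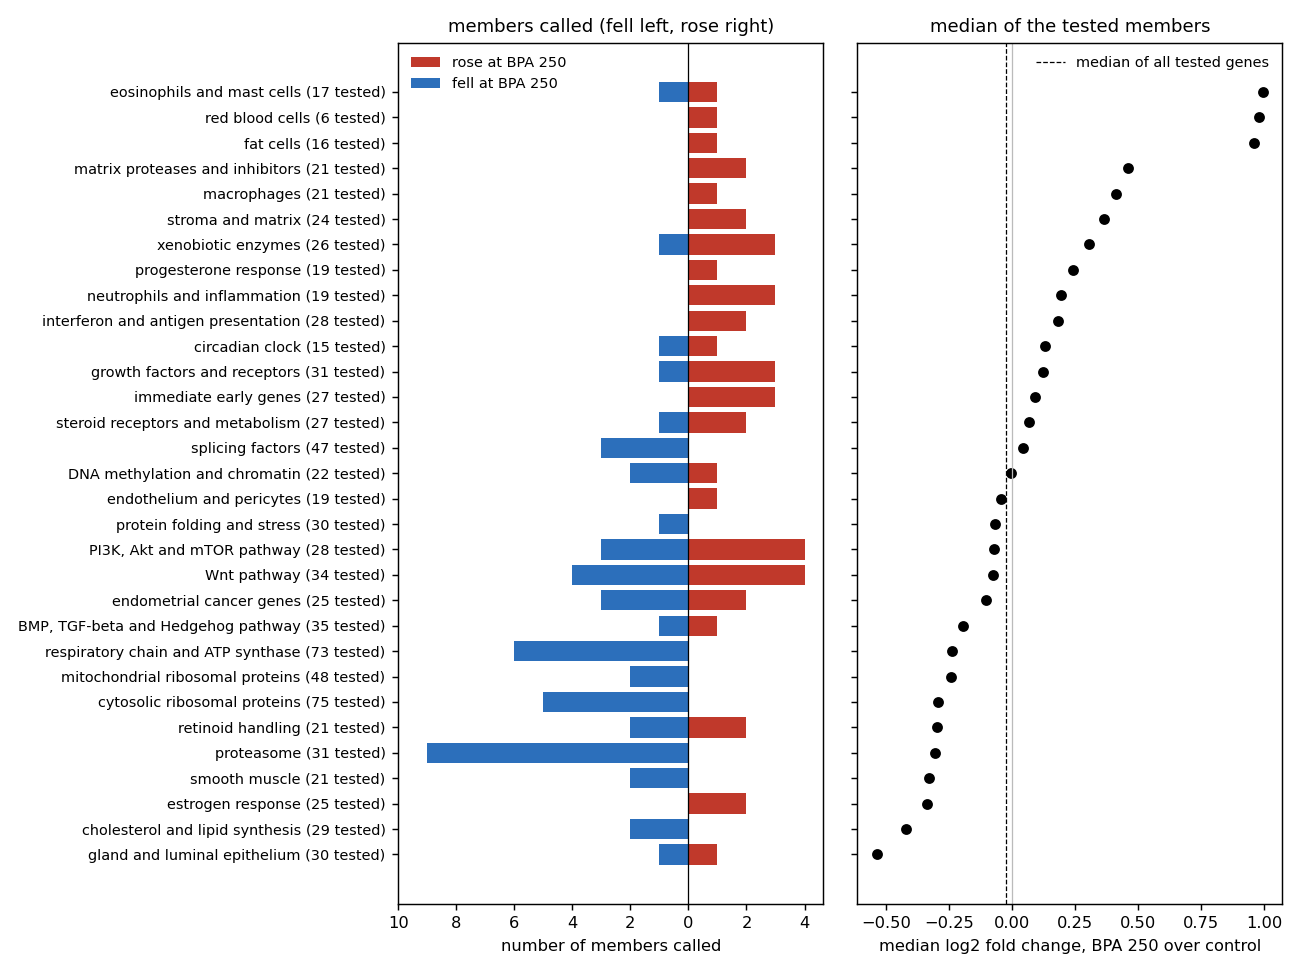
For each gene list with at least 1 call, the left bars count the members that fell (blue, to the left of 0) and rose (red, to the right of 0) at BPA 250 against control, and the right points give the median log2 fold change of the tested members, with the median of all tested genes as the dashed line at -0.02. The proteasome bar is the longest, with 9 members that fell and 0 that rose.

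The other genes among the 15 most lowered were of low or uneven level. Tmem215, a transmembrane protein gene, was at 0, 1.77, 0.980 and 0.981 CPM at BPA 250 and 3.71, 12.7, 6.74 and 11.1 CPM in control, and Cldn24, a claudin gene, at 1.28, 0.998, 2.32 and 1.04 CPM at BPA 250 and 3.88, 17.8, 7.32 and 10.3 CPM in control. Neither overlapped, with a log2 fold change of -3.18 ± 0.86 (adjusted p = 0.0253) for Tmem215 and -2.83 ± 0.78 (adjusted p = 0.0269) for Cldn24. Prss12, which encodes the protease neurotrypsin, was at 0, 1.91, 2.495 and 2.54 CPM at BPA 250 and 10.6, 8.66, 7.17 and 16.99 CPM in control. Prss12 had a log2 fold change of -2.65 ± 0.63 (adjusted p = 0.0147). Rnft2, a RING finger gene, was at 0.612, 0.998, 1.51 and 0.7505 CPM at BPA 250 and 2.07, 5.85, 4.20 and 5.08 CPM in control. Rnft2 had a log2 fold change of -2.16 ± 0.48 (adjusted p = 0.011). Adgrb1, an adhesion receptor for apoptotic cells, was at 6.46, 7.62, 1.43 and 3.35 CPM at BPA 250 and 15.3, 31.9, 14.9 and 20.96 CPM in control. Adgrb1 had a log2 fold change of -2.12 ± 0.61 (adjusted p = 0.0311). Hspa1l, a member of the Hsp70 family with close copies beside it, was at 0, 4.54, 4.19 and 4.04 CPM at BPA 250 and 15.3, 14.4, 7.54 and 16.3 CPM in control. Hspa1l had a log2 fold change of -2.07 ± 0.64 (adjusted p = 0.0415). None of these 6 overlapped between the groups, and BPA 250 library 1 had a count of 0 for Tmem215, Prss12 and Hspa1l. Significance was lost for Tmem215 without BPA 250 libraries 1 or 4 or control libraries 2 or 4 (adjusted p up to 0.0748), Cldn24 without BPA 250 libraries 1 or 4 or control libraries 2 or 4 (adjusted p up to 0.0803) and Prss12 without control library 4 (adjusted p = 0.0536). An adjusted p over 0.05 was found for Rnft2 without BPA 250 library 1 (adjusted p = 0.0509), Adgrb1 without BPA 250 libraries 1, 3 or 4 or control libraries 2 or 4 (adjusted p up to 0.0878) and Hspa1l without BPA 250 libraries 1, 3 or 4 or any 1 control library (adjusted p up to 0.0949).

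The groups overlapped for the other 5. En2, a homeobox gene, was at 0, 9.53, 0.802 and 2.77 CPM at BPA 250 and 25.8, 1.998, 47.4 and 14.5 CPM in control. En2 had a log2 fold change of -2.74 ± 0.86 (adjusted p = 0.0444). Sftpd, a collectin of mucosal surfaces, was at 0, 8.71, 2.23 and 2.77 CPM at BPA 250 and 37.9, 6.37, 26.5 and 10.9 CPM in control. Sftpd had a log2 fold change of -2.54 ± 0.78 (adjusted p = 0.0414). Dmbt1, a mucosal scavenger receptor, was at 216, 937, 227 and 405 CPM at BPA 250 and 5340.4, 182, 1379.6 and 1219.6 CPM in control. Dmbt1 had a log2 fold change of -2.19 ± 0.67 (adjusted p = 0.042). In each of these 3, control library 2 was the lowest control, within the BPA 250 range for En2 and Sftpd and below it for Dmbt1. Cit, a kinase of cytokinesis, was at 0.612, 2.90, 1.25 and 3.69 CPM at BPA 250 and 6.21, 12.4, 14.8 and 2.99 CPM in control. Cit had a log2 fold change of -2.09 ± 0.54 (adjusted p = 0.021). Ppp2r2c, a regulatory subunit of protein phosphatase 2A, was at 0, 1.497, 1.07 and 2.66 CPM at BPA 250 and 3.45, 10.1, 1.88 and 5.71 CPM in control. Ppp2r2c had a log2 fold change of -2.01 ± 0.63 (adjusted p = 0.0452). Of the 15 most lowered genes 3 held, namely Fgfr3, Nrg2 and Uqcc2, and among all 579 lowered genes the lowest BPA 250 value fell in library 1 for 312. Calls were lost for En2 without BPA 250 libraries 1, 3 or 4 or control libraries 1, 3 or 4 (adjusted p up to 0.147), Sftpd without BPA 250 libraries 1, 3 or 4 or control libraries 1, 3 or 4 (adjusted p up to 0.109) and Dmbt1 without BPA 250 libraries 1, 3 or 4 or control libraries 1, 3 or 4 (adjusted p up to 0.276). The test was no longer passed for Cit without BPA 250 libraries 1 or 3 or control libraries 2 or 3 (adjusted p up to 0.0803) and Ppp2r2c without BPA 250 libraries 1, 2 or 3 or control libraries 1, 2 or 4 (adjusted p up to 0.16).

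Immediate early genes, which respond within minutes to growth signals and stress, gave 3 that rose and 0 that fell of 27 tested. The share was 11.1%, beside 4.44% of all tested genes that rose. Maff, a small Maf transcription factor, was at 43.1, 27.5, 39.8 and 29.2 CPM at BPA 250 and 7.07, 10.5, 6.23 and 14.1 CPM in control. All BPA 250 values were above all controls, and the log2 fold change of 1.88 ± 0.33 (adjusted p = 0.00395) held. Dusp1, a phosphatase of the mitogen-activated kinases, was at 65.1, 62.4, 109 and 105 CPM at BPA 250 and 36.04, 58.2, 33.2 and 45.7 CPM in control, without overlap. Dusp1 had a log2 fold change of 0.98 ± 0.24 (adjusted p = 0.0169). Ier5 had a log2 fold change of 0.63 ± 0.15 (adjusted p = 0.0136). All 3 also passed without BPA 250 library 1. Of 28 tested interferon and antigen presentation genes 2 rose and 0 fell, Rsad2, an antiviral enzyme, by a log2 fold change of 2.19 ± 0.50 (adjusted p = 0.013) and B2m, the light chain of class I molecules, by 0.83 ± 0.25 (adjusted p = 0.036). Of 15 clock genes Cry1 rose, with a log2 fold change of 0.67 ± 0.21 (adjusted p = 0.0456), and Nr1d1 fell, with -0.88 ± 0.24 (adjusted p = 0.024). Both are repressors of the circadian loop; time of day at collection is not given in the sources used here. Of 22 chromatin genes the histone deacetylase gene Hdac9 rose, with a log2 fold change of 1.502 ± 0.46 (adjusted p = 0.042). Another deacetylase gene, Hdac1, fell with -0.75 ± 0.20 (adjusted p = 0.0239), and the histone methyltransferase gene Ehmt2 fell with -0.58 ± 0.15 (adjusted p = 0.0227). The share that passed was 7.14% of interferon and antigen presentation, 13.3% of clock and 13.6% of chromatin genes. Of all tested genes 8.79% passed in either direction and 4.44% rose. The threshold was no longer passed for Dusp1 without BPA 250 library 4 or control library 3 (adjusted p up to 0.0572), Ier5 without control library 4 (adjusted p = 0.0551), Rsad2 without BPA 250 library 1 (adjusted p = 0.0677) and B2m without BPA 250 libraries 1, 2 or 4 or control libraries 2, 3 or 4 (adjusted p up to 0.115). No call was made for Cry1 without any 1 BPA 250 library or any 1 control library (adjusted p up to 0.11), Nr1d1 without BPA 250 libraries 1 or 4 or control libraries 1 or 4 (adjusted p up to 0.0903), Hdac9 without BPA 250 libraries 1, 3 or 4 or any 1 control library (adjusted p up to 0.104), Hdac1 without BPA 250 libraries 1, 3 or 4 or control libraries 2, 3 or 4 (adjusted p up to 0.107) and Ehmt2 without BPA 250 libraries 1 or 4 or control libraries 1 or 3 (adjusted p up to 0.109).

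Marker lists of the cell types in the tissue gave few calls. The share that passed was 6.67% for gland and luminal epithelium and 9.52% for smooth muscle, beside 8.79% of all tested genes. The 30 tested markers of gland and luminal epithelium had 24 fitted values below control and a median of -0.54, with 1 that rose (Lgr5) and 1 that fell. That gene was Wfdc2, a secreted protease inhibitor, with a log2 fold change of -1.42 ± 0.42 (adjusted p = 0.0362). Their summed level was 2283 to 6285 CPM at BPA 250 and 2653 to 6263 CPM in control. Of 21 smooth muscle markers Tpm2, a tropomyosin, and Smtn, smoothelin, fell and none rose, with log2 fold changes of -1.23 ± 0.36 (adjusted p = 0.0332) for Tpm2 and -0.83 ± 0.26 (adjusted p = 0.0425) for Smtn. The summed level of the 21 was 23381 to 31419.9 CPM at BPA 250 and 24939 to 46865 CPM in control. Cell cycle genes had 28 of 32 fitted values below control and a median of -0.58, but none passed; their summed level was 455 to 560.1 CPM at BPA 250 and 402 to 1073 CPM in control, and the proliferation marker Mki67 was at 20.7, 34.5, 16.1 and 29.3 CPM at BPA 250 and 51.04, 17.5, 127 and 31.5 CPM in control. Significance was lost for Wfdc2 without BPA 250 libraries 1, 3 or 4 or control libraries 1, 3 or 4 (adjusted p up to 0.107), Tpm2 without BPA 250 libraries 1, 3 or 4 or control libraries 2, 3 or 4 (adjusted p up to 0.128) and Smtn without BPA 250 libraries 1, 2 or 4 or control libraries 1, 2 or 4 (adjusted p up to 0.132).

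Of 21 macrophage markers Cd163, a hemoglobin scavenger receptor, rose, with a log2 fold change of 2.58 ± 0.67 (adjusted p = 0.0217), and of 19 endothelial and pericyte markers Emcn, with 0.96 ± 0.30 (adjusted p = 0.0422). The share that passed was 4.76% of macrophage, 5.26% of endothelial and pericyte and 6.25% of fat cell markers. It was 11.8% of eosinophil and mast cell and 16.7% of red blood cell genes, beside 8.79% of all tested genes. Lpl, lipoprotein lipase, was the 1 of 16 tested fat cell markers that rose, at 551, 159, 550.2 and 657 CPM at BPA 250 and 77.1, 118, 65.7 and 78.8 CPM in control. Lpl had a log2 fold change of 2.50 ± 0.63 (adjusted p = 0.0181). The fat cell hormone gene Adipoq did not pass, with 22.8, 136, 204 and 247 CPM at BPA 250 and 8.97, 497, 291 and 293 CPM in control. Of 17 eosinophil and mast cell markers the chymase gene Cma1 rose, with a log2 fold change of 2.74 ± 0.77 (adjusted p = 0.0295). The tryptase gene Tpsab1, which has a close paralog, had 0 counts in BPA 250 and 14 counts in control (adjusted p = 0.0426). Of 6 tested red blood cell genes Hbb-b1, which has close copies, rose, with a log2 fold change of 1.39 ± 0.40 (adjusted p = 0.0312). The 7 genes of this list in the count table summed to 363 to 568 CPM at BPA 250 and 205 to 318 CPM in control. None of the 13 motile cilia, 20 lymphocyte, 19 stratified epithelium, 9 nerve, 5 mesothelium, 5 skeletal muscle or 3 ovary and oviduct genes tested passed. The motile cilia genes nevertheless summed to 73.2 to 149 CPM at BPA 250 and 49.6 to 66.02 CPM in control, without overlap, and 10 of the 13 had a fitted value above control, with a list median of 1.22. Most of this sum came from Ccdc39 and Tppp3. Ccdc39, a gene of ciliary assembly, was at 78.4, 48.4, 64.3 and 65.1 CPM at BPA 250 and 36.6, 38.7, 28.3 and 29.7 CPM in control (log2 fold change 0.94 ± 0.44, adjusted p = 0.158). Foxj1, the regulator of motile cilia, was at 2.17, 0.363, 2.32 and 0 CPM at BPA 250 and 0.862, 0, 0 and 0.139 CPM in control, with overlap. The ovary and oviduct list summed to 7.67 to 45.95 CPM at BPA 250 and 6.04 to 39.005 CPM in control. Whether the make-up of the tissue pieces played a part in the changes above was not tested. An adjusted p over 0.05 was found for Cd163 without BPA 250 library 1 or control libraries 2 or 4 (adjusted p up to 0.0747), Emcn without BPA 250 libraries 1 or 3 or control libraries 1, 3 or 4 (adjusted p up to 0.215) and Lpl without BPA 250 library 1 or control libraries 3 or 4 (adjusted p up to 0.057). Calls were lost for Cma1 without BPA 250 libraries 1 or 3 or control libraries 1, 3 or 4 (adjusted p up to 0.0815), Tpsab1 without any 1 BPA 250 library or any 1 control library (adjusted p up to 0.107) and Hbb-b1 without BPA 250 libraries 1 or 4 or control libraries 1, 2 or 4 (adjusted p up to 0.0831).

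Against the mean of the other 4 BPA groups, which leaves the control libraries out of the contrast, 2579 genes differed in the BPA 250 group, 19.4% of those tested, of which 1364 were higher (10.2%) and 1215 lower (9.13%). Among the 8 genes with the largest rises was Svbp, which encodes a small partner of the vasohibin tubulin peptidases. Its mean was 24.5, 12.6, 35.6, 72.8, 15.3 and 11.7 CPM in control, BPA 2.5, BPA 25, BPA 250, BPA 2500 and BPA 25000. The log2 fold change against the other BPA groups was 2.11 ± 0.23 (adjusted p = 2.15e-06). In the BPA 250 libraries it was at 147, 45.8, 47.6 and 50.6 CPM, library 1 well above the rest. Ptgs2 averaged 21.2, 10.7, 25.9, 145, 37.3 and 43.99 CPM in the same order of groups, and its log2 fold change against the other BPA groups was 2.48 ± 0.40 (adjusted p = 0.000263). Slc17a3 averaged 0.182, 1.35, 11.3, 76.5, 19.6 and 27.9 CPM, with 2.996 ± 0.67 (adjusted p = 0.00319) against the other BPA groups on the log2 scale. Lrat averaged 89.3, 122, 310.2, 728, 324 and 134 CPM, with 1.85 ± 0.51 (adjusted p = 0.0126) on that scale. Single libraries overlapped for Ptgs2, Slc17a3 and Lrat. The highest library of the other BPA groups was at 82.2, 61.9 and 807 CPM for these genes in turn. BPA 250 library 2 was at 33.3, 1.41 and 185 CPM. C1qtnf3, a secreted relative of complement C1q, averaged 7.48, 10.5, 15.7, 42.7, 13.2 and 11.4 CPM, a log2 fold change of 1.77 ± 0.37 (adjusted p = 0.00208). The BPA 250 mean was the highest of the 6 in these 5 genes. These 5 were chosen for a rise over the other BPA groups, so a high place among the doses largely follows from that choice. The 8 also held Elavl2, the monocarboxylate transporter gene Slc16a12 and 1 gene without a symbol (ID 689840).

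The 8 genes furthest below the other BPA groups were Spns3, Clic6, P2rx6, Cldn24, Ihh, Lefty1, Hspa1l and Pnma8b. Ihh, the Hedgehog ligand of the uterine epithelium, averaged 8.03, 13.9, 20.5, 2.69, 8.09 and 9.47 CPM in control, BPA 2.5, BPA 25, BPA 250, BPA 2500 and BPA 25000, a log2 fold change of -2.17 ± 0.71 (adjusted p = 0.0328) against the other BPA groups. Lefty1, an inhibitor of Nodal signalling, averaged 4.37, 26.6, 7.22, 1.74, 4.23 and 3.27 CPM in that order, a log2 fold change of -2.05 ± 0.70 (adjusted p = 0.0376). For Lefty1 and also for Spns3 and P2rx6 the BPA 2.5 mean was well above that of any other group. Cldn24 was highest at BPA 2.5 too, with 22.3 ± 19.7 CPM (SD), beside 9.84 CPM in control. Fgfr3 averaged 29.4, 32.7, 10.9, 7.14, 17.2 and 15.1 CPM, a log2 fold change of -1.28 ± 0.30 (adjusted p = 0.0049). For this gene the BPA 250 mean was the lowest of the 6. In this contrast the number of calls was 1329 without BPA 250 library 1 and 1522 without library 4, and 1014 without the 4 libraries of the series that stood apart (2 of BPA 2.5, 1 of BPA 250 and 1 of BPA 25000).

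Over the BPA doses, genes changed at BPA 250 followed more than 1 course. Cyp26a1 averaged 0.233, 2.69, 15.1, 80.6, 60.1 and 121 CPM in control, BPA 2.5, BPA 25, BPA 250, BPA 2500 and BPA 25000, and Igfbp1 0.274, 6.47, 6.10, 27.1, 23.3 and 50.5 CPM. Both were highest at BPA 25000, and against the other BPA groups neither passed, with log2 fold changes of 1.79 ± 0.84 (adjusted p = 0.126) for Cyp26a1 and 0.88 ± 0.69 (adjusted p = 0.382) for Igfbp1. Cited2 averaged 41.2, 104, 97.6, 145, 81.3 and 91.9 CPM and Igfbp3 30.6, 105, 101, 121, 64.3 and 63.4 CPM in the same order. Both were above control at every BPA dose and highest at BPA 250, and did not pass, with log2 fold changes against the other BPA groups of 0.63 ± 0.25 (adjusted p = 0.0692) for Cited2 and 0.58 ± 0.27 (adjusted p = 0.125) for Igfbp3. Akt1 averaged 112, 111, 62.9, 64.1, 112 and 113 CPM and Psmc3 78.1, 69.5, 49.5, 42.3, 74.2 and 79.6 CPM. In these, as in Mapk14 (243, 226, 129, 124, 231 and 218 CPM) and Mrps25 (33.9, 39.5, 18.1, 16.997, 32.9 and 28.8 CPM), the BPA 25 mean lay close to that of BPA 250 and the other 3 BPA groups lay close to control. The BPA 25 mean of Dcn lay between those of control and BPA 250, with 3798, 3687, 7844, 11330.5, 4342 and 4619 CPM. Ak5 was highest at BPA 25, with 1.31, 43.95, 106, 39.8, 14.01 and 37.8 CPM. These contrasts share the BPA 250 libraries with the comparison against control.

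**Figure D5:**
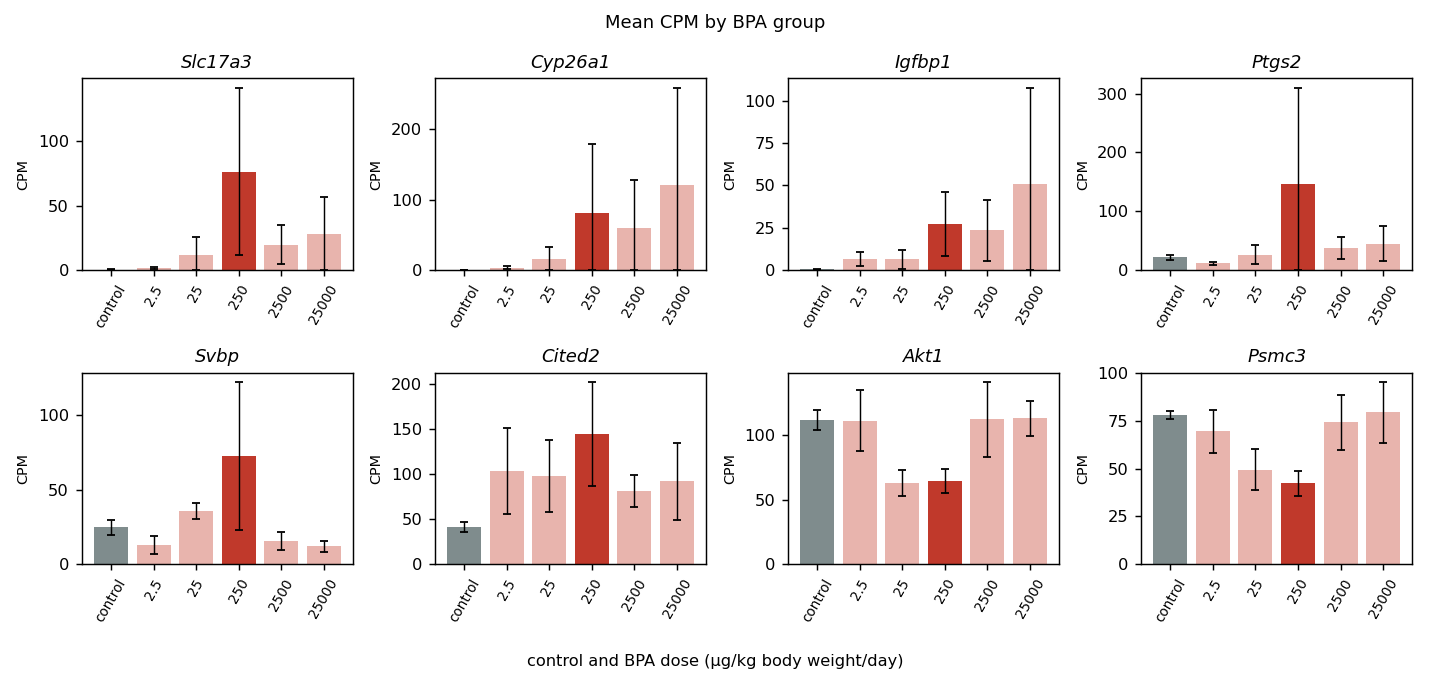
Mean CPM (bars) and SD over 4 libraries (error bars, the lower one cut at 0) of 8 genes in control (grey) and the 5 BPA groups in order of dose, with BPA 250 in red. Slc17a3, Ptgs2, Svbp and Cited2 have their highest mean at BPA 250, Cyp26a1 and Igfbp1 at BPA 25000, and Akt1 and Psmc3 are low at BPA 25 and BPA 250. Slc17a3, Ptgs2 and Svbp are among the genes chosen for a rise over the other BPA groups.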

How the data were processed

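Uterine RNA was extracted with a lipid tissue kit and made into libraries by Illumina protocols, per the labels' protocols. The authors deposited 1 table of raw read counts per gene for 32 libraries. The submitters' processing notes name bcl2fastq, TopHat, edgeR and the build rn5; annotation and strand setting: not given in the sources used here. Overlapping or antisense genes cannot be told apart. Gene IDs were named through RefSeq gene tables (GRCr8, 17167 of 17327 matched; the 160 without a name hold 1.82% of the counts). The counts were scaled by TMM and fitted in edgeR 4.0.16 (R 4.3.3) with 1 mean for each of the 8 groups, after filterByExpr (minimum count 10, minimum total 15), by the quasi-likelihood test with Benjamini-Hochberg adjustment over 13312 genes at 0.05. CPM use TMM-scaled library sizes. Fold changes are log2, BPA 250 over control or over the mean of the other BPA groups, and each SE is the log2 fold change divided by the square root of the F statistic. The test was also run on simulated counts in which no library stood apart and genes of low count were left unchanged. That run does not bear on BPA 250 library 1 or on genes near 0. A call held if it passed in all 8 fits that left out 1 BPA 250 or control library.

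Genes named are the 15 most raised and 15 most lowered that passed, had all 4 BPA 250 libraries on 1 side of the control mean and averaged 1 or more in log2 CPM, the up to 4 members of each of 39 gene lists with the smallest p, the 8 most raised and lowered against the other BPA groups, and a panel of estrogen and cell type genes; a few genes under this rule are not reported here. The comparison, the lists and these rules were chosen with earlier results of these data known. Alternatives were DESeq2 1.42.0, limma 3.58.1 voom with sample quality weights, DESeq2 size factors, other filters, a robust spread, a fit of only the groups compared and leaving out libraries; leaving out the 4 libraries that stood apart was added after seeing the data. Promoters are RefSeq GRCr8 and share no coordinates with the counts. Depth was 11777809 to 24661856 counts a library, and a count of 0 was set to a floor of 3 counts where a fold is given; floors and intervals cover counting error only.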

Additional observations from a re-analysis of the deposited data

Results flagged for a closer look

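In 16 of 224 groups of 4 values checked (the CPM of the genes named in the text, the total counts and the percentage of genes at 0, each in BPA 250 and in control), 1 library lay further from the others than Dixon's 95% critical value allows. Chance gives about 1 such group in 20.

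Spp1 was 3688 CPM in BPA 250 library 4, the highest, and 72.2 to 689.6 CPM in the other 3. Ak5 was 4.08 CPM in BPA 250 library 2, the lowest, and 50.3 to 53.03 CPM in the other 3. Hspa1l was 0 CPM in BPA 250 library 1, the lowest, and 4.04 to 4.54 CPM in the other 3. Lum was 105 CPM in BPA 250 library 2, the lowest, and 291 to 304 CPM in the other 3. Plau was 243 CPM in BPA 250 library 1, the highest, and 49.04 to 76.6 CPM in the other 3. Mrps25 was 19.5 CPM in BPA 250 library 2, the highest, and 16.1 to 16.2 CPM in the other 3. Psmd2 was 146 CPM in BPA 250 library 2, the highest, and 139 to 140.3 CPM in the other 3. Svbp was 147 CPM in BPA 250 library 1, the highest, and 45.8 to 50.6 CPM in the other 3. C1qtnf3 was 105 CPM in BPA 250 library 4, the highest, and 14.5 to 28.6 CPM in the other 3. Esr2 was 0.866 CPM in BPA 250 library 4, the highest, and 0 CPM in the other 3. Pgr was 243 CPM in BPA 250 library 2, the highest, and 132 to 148 CPM in the other 3.

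Ptgs2 was 15.1 CPM in control library 2, the lowest, and 22.7 to 23.7 CPM in the other 3. Tgfb2 was 132 CPM in control library 2, the highest, and 76.9 to 84.6 CPM in the other 3. Rxrb was 28.6 CPM in control library 1, the lowest, and 31.5 to 32.05 CPM in the other 3. Foxj1 was 0.862 CPM in control library 1, the highest, and 0 to 0.139 CPM in the other 3. The total was 11777809 counts in control library 1, and 14235867 to 14579842 in the other 3.

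Another result marked for a closer look is the difference of BPA 250 from the other BPA doses, for which 2579 genes passed the test of that difference (edgeR, adjusted p under 0.05), 19.4% of those tested.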

How the results depend on the processing

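Against control, DESeq2 called 1842 genes (1044 higher) and limma voom with sample quality weights 2991 (1491 higher, 1500 lower), in place of 1170. The cause was not tested. With DESeq2 size factors the count was 1205, with no filter 970, with the stricter filter 1209, with a robust spread 1166, in a fit of BPA 250 and control alone 1204, and without the 4 libraries that stood apart 884. Of the 1170 calls, 1170 were kept by DESeq2 and 802 in the fit of 2 groups, and 0 changed sign under any setting. Without 1 library the count was 179 to 1594, with 117 to 757 higher and 62 to 837 lower. Against the other BPA groups, a fit of only the groups compared gave 1468 calls (512 lower) in place of 2579, and without the 4 libraries that stood apart 1014 (636 higher, 378 lower). Without 1 BPA 250 library it was 1329 to 2318, with 870 to 1326 higher and 459 to 992 lower. Genes over 2 from the median of the other 3 libraries of their group on the log2 scale numbered 278, 183, 68 and 46 in BPA 250 libraries 1 to 4 and 108, 202, 83 and 39 in control libraries 1 to 4. At a difference over 1 they numbered 1379, 968, 784 and 501 in BPA 250 and 584, 765, 495 and 250 in control. The log2 fold change of C3, near 0 with all libraries, was above 0 with DESeq2 size factors (0.0034), with DESeq2 (0.0033) and with weighted voom (0.19), and ranged from -0.50 to 0.79 without 1 library. No paired analysis was possible because the labels number the 32 samples in 1 run, with no replicate number within a group; libraries 1 to 4 here are names in record order and tie no samples across groups.

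Low counts limit the fold changes of genes near 0 in control, such as Slc17a3, Cyp26a1, Igfbp1 and Ccl20. Genes at 0 in BPA 250 library 1 cannot be told apart from genes not captured in it.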
